A study of Mus musculus with 6 samples.

Results

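Wnt ligands, the genes that secrete them, their receptors, their secreted antagonists and a small set of intracellular effectors and target genes were examined in mouse renal cortex after ischemic injury. The members were taken by gene symbol: every symbol that begins with Wnt, Fzd, Sfrp, Dkk or Rspo followed by a digit, and 22 further genes named singly (Lrp5, Lrp6, Porcn, Wls, Ror1, Ror2, Ryk, Lgr4, Lgr5, Lgr6, Znrf3, Rnf43, Wif1, Draxin, Notum, Kremen1, Ctnnb1, Lef1, Tcf7, Axin2, Nkd1 and Nkd2). This gave 53 of the 19176 rows of the expression table: 14 ligands, 2 genes of ligand secretion, 11 Frizzled and LRP receptors, 3 alternative receptors, 7 genes of the R-spondin axis, 10 antagonists and 6 effectors and targets. All 22 singly named genes were found.

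The libraries came from wild-type C57BL/6J mice, which the methods describe as young adult males, in which the left renal pedicle was clamped and the right kidney was removed shortly before the tissue was collected on day 14 (unilateral ischemia-reperfusion injury, UIRI). The UIRI group (n = 3) received vehicle and the UIRI + BA group (n = 3) received BA at 1 mg/kg, both by daily intraperitoneal injection for 14 days. BA is bruceine A in the methods, a quassinoid of the plant Brucea javanica, and is spelled brucine A in the sample labels. Both groups were injured and no sham library was analysed here, so the values compare BA with vehicle in injured kidneys, and what the injury itself did to a gene is not measured. The tissue was whole renal cortex with tubular and interstitial cells mixed, so that fewer cells of a type and less RNA per cell cannot be told apart in any value given here.

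Wnt proteins are secreted lipid-modified glycoproteins. In the canonical branch they bind a Frizzled receptor together with LRP5 or LRP6, which keeps beta-catenin from being degraded so that it can act with TCF/LEF factors on target genes, several of which, such as Axin2, Nkd1 and Nkd2, feed back to dampen the signal. R-spondins raise the number of Frizzled receptors at the surface through LGR receptors and the ligases ZNRF3 and RNF43, whereas SFRP, WIF1 and DKK proteins are secreted inhibitors. In the kidney the pathway is known for its part in nephron and collecting duct development, where Wnt4, Wnt7b, Wnt9b and Wnt11 act, and for being active again in injured and fibrotic tissue.

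The libraries held between 16510720 and 38124164 reads on genes. UIRI replicate 3 was the deepest, at 2.04 times the median of the other 5 libraries. The deposited values are counts divided by a size factor (called normalized counts below), and whole reads could be recovered from all of them. Every fold change is that of UIRI + BA over UIRI, on the scale of log2(normalized count + 1), and was tested with limma across all 19176 rows with Benjamini-Hochberg adjustment. Values per library are listed in the order of replicates 1, 2 and 3, and the main test does not pair equal numbers. Markers of other cells differed between the groups as well. The summed normalized count of 10 fibroblast and myofibroblast genes was 94484 to 113350.0 in UIRI against 69896 to 92236 in UIRI + BA, with 10 of 10 genes lower. That of 12 proximal tubule genes was 29154 to 45284 in UIRI against 47826 to 58539 in UIRI + BA, with 12 of 12 higher. That of 10 urothelium genes was 539, 521 and 1216 in UIRI against 277, 411 and 829.6 in UIRI + BA.

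**Figure D1:**
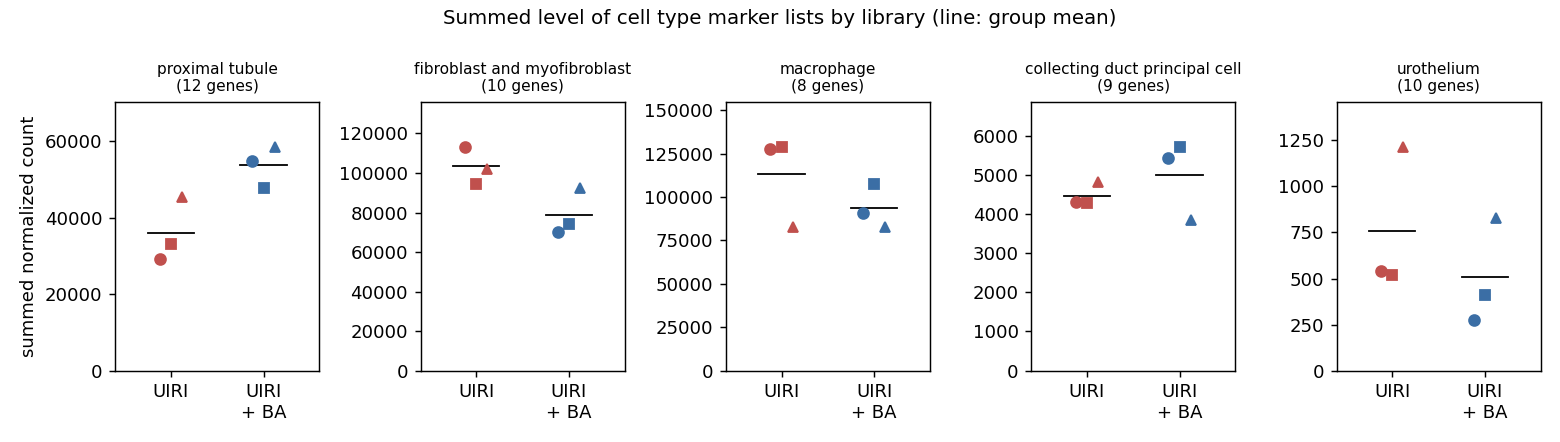
Summed normalized counts (linear axes from 0) of 5 lists of cell type markers, 1 panel a list, with UIRI in red and UIRI + BA in blue; each point is 1 library (circle, square and triangle for replicates 1, 2 and 3) and the black line is the group mean. The groups do not overlap for the proximal tubule list (higher with BA) and the fibroblast and myofibroblast list (lower with BA), and replicate 3 is the highest library of its group for urothelium genes.

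Across the 53 members, 36 had a lower and 17 a higher fitted level with BA, and the median log2 fold change was -0.19, against -0.0053 over all genes of the table. None of the members passed limma's test at an adjusted p below 0.05, and 0% of all genes did. At that threshold edgeR's quasi-likelihood test also gave 0 members, while DESeq2's Wald test gave 2, Nkd1 and Nkd2. These were 4.88% of the 41 members to which DESeq2 assigned an adjusted p, against 1.49% (213) of the 14340 such genes. The members without one included Wnt6, Wnt7a and Draxin, whose unadjusted p in DESeq2 were 0.0618, 0.00283 and 0.012. At an unadjusted p below 0.05 in limma there were 14 members (26.4%), all lower with BA, against 4.61% of all genes that were lower and 5.67% that were higher at that threshold. These were Wnt4, Wnt5b, Wnt6, Wnt7a, Wnt7b, Wnt11, Fzd1, Fzd2, Draxin, Dkk2, Sfrp4, Axin2, Nkd1 and Nkd2. In 15 members (28.3%) all UIRI + BA libraries lay below all UIRI libraries, against 6.96% of all genes, and in 0 members did they all lie above, against 7.45% of all genes. For any such member the exact two-sided permutation test gives p = 0.1, the smallest value that 3 against 3 libraries allow.

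**Figure D2:**
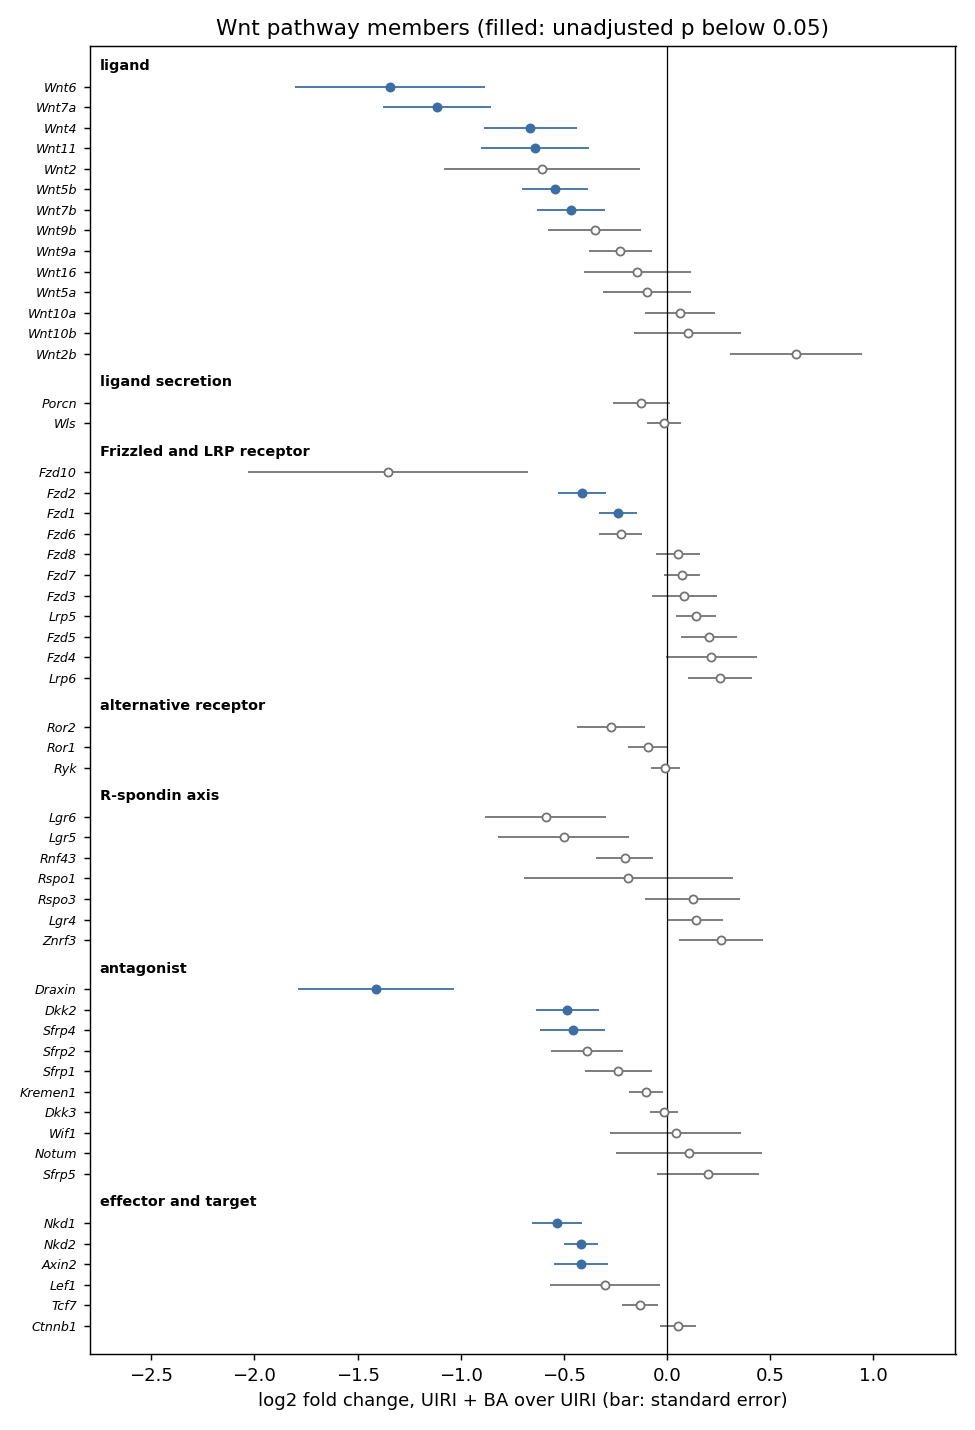
Log2 fold change (UIRI + BA over UIRI, horizontal axis) of each of the 53 members, in blocks by role and sorted within a block; points are limma's estimates, bars their standard errors, and filled blue points have an unadjusted p below 0.05. All 14 filled points lie left of 0, 6 of them among the ligands and none among the secretion genes, the alternative receptors or the R-spondin axis.

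The ligands are the signals that start the pathway. Of the 14 in the table, 11 were lower and 3 higher with BA (median log2 fold change -0.41). An unadjusted p below 0.05 in limma was found in 6 (42.9%), all of them lower, against 4.61% of all genes. In 4 (28.6%) all UIRI + BA libraries lay below all UIRI libraries, against 6.96% of all genes. Wnt1, Wnt3, Wnt3a, Wnt8a and Wnt8b are not rows of the table, whose smallest row holds 10 reads over the 6 libraries, and were not analysed here. Per kilobase of merged exon, the most abundant ligands in UIRI were Wnt4 (213 normalized counts per kb), Wnt7b (103) and Wnt5a (93.8). These 3 genes held 63.6% ± 2.23 (SD, n = 3) of the per kilobase sum of all ligands in UIRI against 61.1% ± 2.99 (SD, n = 3) in UIRI + BA. That sum was 731, 531 and 666 in UIRI against 444, 434 and 575 in UIRI + BA, so that UIRI + BA replicate 3 reached above UIRI replicate 2.

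**Figure D3:**
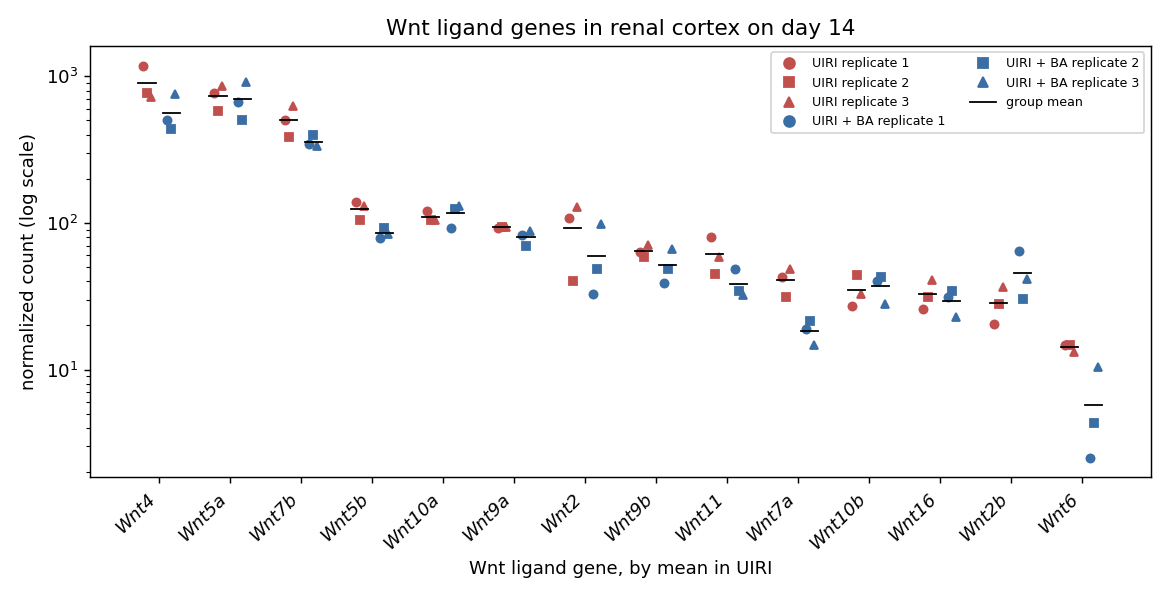
Normalized counts (log axis) of the 14 Wnt ligand genes, ordered by their mean in UIRI; each point is 1 library, UIRI in red and UIRI + BA in blue (circle, square and triangle for replicates 1, 2 and 3), and the black line is the group mean. The means in UIRI run from 893 (Wnt4) to 14.2 (Wnt6) and are not scaled by gene length, and the red and blue points are fully apart in Wnt5b, Wnt6, Wnt7a and Wnt9a.

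Wnt4, which drives the change from mesenchyme to epithelium in the developing nephron, lies on the plus strand of chromosome 4 from 137277489 to 137299726 (GENCODE release M21, build GRCm38, as for all gene positions here; the table gives symbols only, so the symbol alone ties a gene to its position). Its normalized count was 1184, 770.5 and 726 in UIRI against 502, 440.5 and 753 in UIRI + BA. UIRI + BA replicate 3 thus stood at the level of UIRI replicates 2 and 3, and the other UIRI + BA libraries were below every UIRI library. Wnt4 had a log2 fold change of -0.66 ± 0.23 (SE) and an adjusted p of 0.404 in limma, with extremes of -0.89 (UIRI + BA replicate 3 left out) and -0.44 (UIRI replicate 1 left out). Its unadjusted p exceeded 0.05 in the fits without UIRI replicate 1, UIRI + BA replicate 1 or UIRI + BA replicate 2, where it was 0.0613, 0.0602 and 0.0612.

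Wnt7a and Wnt7b are close relatives, and Wnt7b is the ligand that the collecting duct uses in building the medulla. Wnt7a (chromosome 6, minus strand, 91363981 to 91411363, GRCm38) had normalized counts of 43.1, 31.5 and 48.2 in UIRI against 18.8, 21.5 and 14.6 in UIRI + BA. The closest libraries of the groups lay 9.95 normalized counts apart. The reads summed to 154 in UIRI against 49 in UIRI + BA, a depth-scaled ratio of 2.35 (95% exact binomial interval 1.69 to 3.30, counting error only). Wnt7a had a log2 fold change of -1.11 ± 0.26 (SE) and an adjusted p of 0.260 in limma, and without 1 library it ran from -1.29 to -0.97. Wnt7b (chromosome 15, minus strand, 85535437 to 85582473) had normalized counts of 501, 385 and 624 in UIRI against 343, 396 and 337 in UIRI + BA. The lowest UIRI library and the highest UIRI + BA library crossed, and UIRI replicate 3 was the highest of all. The log2 fold change of Wnt7b was -0.46 ± 0.17 (SE; adjusted p = 0.425 in limma) and fell in size to -0.29 (unadjusted p = 0.0542) without UIRI replicate 3.

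Wnt6, a ligand of the early ureteric bud, had the fewest reads of all ligands. Wnt6 (chromosome 1, plus strand, 74771892 to 74785322) had normalized counts of 14.7, 14.6 and 13.1 in UIRI against 2.51, 4.31 and 10.4 in UIRI + BA. The UIRI libraries were close to each other, and UIRI + BA replicate 3 was nearer to them than to the other UIRI + BA libraries. Wnt6 rested on 50 reads in UIRI against 16 in UIRI + BA, a depth-scaled ratio of 2.33 (95% exact binomial interval 1.31 to 4.39, counting error only). Its log2 fold change was -1.34 ± 0.46 (SE; adjusted p = 0.404 in limma), and it was -0.96 without UIRI + BA replicate 1, where the unadjusted p was 0.0538. DESeq2 on the whole reads gave Wnt6 a log2 fold change of -1.27 with an unadjusted p of 0.0618, so that 5 ligands rather than 6 were lower at that threshold. Krt5 and Krt15, keratins of the basal urothelium, had normalized counts of 1.25 in UIRI + BA replicate 1 and of 3.23 and 5.38 in UIRI + BA replicate 2, the libraries with the least Wnt6, and stood at 18.1 and 55.5, 22.5 and 48.4, and 106.8 and 217 in UIRI replicates 1, 2 and 3. UIRI + BA replicate 3, with the most Wnt6 of its group, had 56.3 and 152. In UIRI this did not hold: replicate 3 had the most Krt5 and Krt15 of its group but the least Wnt6 (13.1). Krt15 and Krt5 had the most negative log2 fold changes of the 10 urothelium genes, at -2.702 and -2.157. All 10 were lower with BA (median -1.77), 0 of them at an unadjusted p below 0.05. Upk1a (-0.185), Trp63 (-0.285) and Sprr1a (-0.254) differed little. Sprr1a was at 310.2 in UIRI + BA replicate 2, above 262.8 and 291.3 in UIRI replicates 1 and 2. The part of urothelial tissue in the value of Wnt6 was not tested.

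Wnt11, a ligand of the ureteric bud tip, had normalized counts of 80.4, 45 and 58.6 in UIRI against 48.9, 34.5 and 32.3 in UIRI + BA. UIRI replicate 1 was the highest, and UIRI + BA replicate 1 lay above UIRI replicate 2. Wnt11 had a log2 fold change of -0.64 ± 0.26 (SE) and an adjusted p of 0.466 in limma. The unadjusted p was 0.154 without UIRI replicate 1, where the log2 fold change was -0.43, and it also exceeded 0.05 without UIRI replicate 3, UIRI + BA replicate 2 or UIRI + BA replicate 3. Wnt5b, which signals mainly outside the beta-catenin branch, was at 138, 105 and 131 in UIRI against 78.9, 92.6 and 83.5 in UIRI + BA. All UIRI + BA libraries were below all UIRI libraries. Wnt5b had a log2 fold change of -0.54 ± 0.16 (SE), with an adjusted p of 0.348 in limma, and ran from -0.66 to -0.46 without 1 library.

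Wnt5a, the other ligand of that kind, was at 767, 577 and 858 in UIRI against 673, 505 and 913 in UIRI + BA. Replicates spread over more than the groups did, and the highest library was UIRI + BA replicate 3. Wnt5a had a log2 fold change of -0.10 ± 0.21 (SE), and the sign turned to 0.11 without UIRI + BA replicate 2. Wnt9a was at 91.8, 94.5 and 94.2 in UIRI against 82.7, 70.0 and 87.7 in UIRI + BA, lower in all UIRI + BA libraries than in any UIRI library. The difference was small, at -0.23 ± 0.15 (SE) on the log2 scale, with an adjusted p of 0.613 in limma. Wnt9b, which induces the nephron from the ureteric bud, was at 63.4, 58.5 and 71.2 in UIRI against 38.8, 48.5 and 66.8 in UIRI + BA, with a log2 fold change of -0.35 ± 0.22 (SE; adjusted p = 0.599 in limma) and UIRI + BA replicate 3 inside the range of UIRI.

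The remaining 5 ligands had no unadjusted p below 0.05 and overlapping groups. Wnt2 was at 108, 40.5 and 128 in UIRI against 32.6, 48.5 and 98.1 in UIRI + BA, with a log2 fold change of -0.61 ± 0.48 (SE). UIRI replicate 2 was low, and without it the log2 fold change of Wnt2 was -1.11 with an unadjusted p of 0.0236. Wnt2b, at 20.4, 28.1 and 36.7 in UIRI against 63.9, 30.2 and 41.7 in UIRI + BA, had the highest fold change of the family (log2 0.63 ± 0.32, SE; adjusted p = 0.529 in limma). UIRI + BA replicate 1 was the highest library, and without it the log2 fold change of Wnt2b was 0.35. Wnt10a was at 120.1, 105 and 105 in UIRI against 92.7, 124 and 131 in UIRI + BA (log2 fold change 0.06 ± 0.17, SE). Wnt10b was at 27.2, 43.9 and 32.9 in UIRI against 40.1, 43.1 and 28.2 in UIRI + BA (log2 fold change 0.10 ± 0.26, SE). Wnt16 was at 26.1, 31.5 and 41.1 in UIRI against 31.3, 34.5 and 23.0 in UIRI + BA (log2 fold change -0.14 ± 0.26, SE). In these last 3 the libraries of both groups were interleaved, and the sign of the difference depended on which library was left out.

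Secretion of every Wnt needs Porcn, which attaches the lipid, and Wls, which carries the protein to the surface. Porcn was at 163, 197 and 157 normalized counts in UIRI against 173, 154 and 146 in UIRI + BA. Wls was at 6618, 6327 and 7483 in UIRI against 6931, 6529 and 6734 in UIRI + BA. The groups overlapped in both genes. The log2 fold changes were -0.12 ± 0.14 (SE) for Porcn and -0.01 ± 0.08 (SE) for Wls, with adjusted p of 0.754 and 0.962 in limma. Wls (chromosome 3, plus strand, 159839672 to 159938664) stood at 775 normalized counts per kb in UIRI against 766 in UIRI + BA. The summed level of the 14 ligands was below it in each group, at 643 ± 102 (SD, n = 3) and 484 ± 78.9 (SD, n = 3) normalized counts per kb.

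The Frizzled and LRP receptors bind the ligands at the cell surface. Of the 11, 7 were higher and 4 lower with BA (median log2 fold change 0.07). An unadjusted p below 0.05 in limma was found in 2 (18.2%), Fzd1 and Fzd2, both lower, against 4.61% of all genes. In UIRI, Fzd1, Fzd4 and Lrp6 held 64.8% ± 1.25 (SD, n = 3) of the receptors' sum per kb. Fzd2 (chromosome 11, plus strand, 102604396 to 102608058) was at 355, 295 and 327 normalized counts in UIRI against 257, 253 and 223 in UIRI + BA. No library of UIRI + BA reached the UIRI range. Fzd2 had a log2 fold change of -0.41 ± 0.11 (SE) with an adjusted p of 0.314 in limma, and it ran from -0.48 to -0.35 without 1 library. Fzd1, the most abundant receptor per kb, was at 3293, 3185 and 3087 in UIRI against 2445, 2658 and 3041 in UIRI + BA. Here UIRI + BA replicate 3 came close to the lowest UIRI library, and the groups did not overlap. Fzd1 had a log2 fold change of -0.24 ± 0.09 (SE; adjusted p = 0.448 in limma), which shrank to -0.16 without UIRI + BA replicate 1, with an unadjusted p of 0.103.

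Lrp5 and Lrp6, the co-receptors of the canonical branch, had higher fitted levels with BA. Lrp6 was at 2653, 2566 and 3775 in UIRI against 4094, 3133 and 3429 in UIRI + BA, and Lrp5 at 646, 638 and 718 in UIRI against 806, 741 and 666 in UIRI + BA. In Lrp6, UIRI replicate 3 stood among the UIRI + BA libraries, and the other UIRI libraries were below all of them. Lrp6 had a log2 fold change of 0.26 ± 0.15 (SE) and Lrp5 of 0.14 ± 0.10 (SE), with adjusted p of 0.574 and 0.622 in limma. Without UIRI replicate 3 the log2 fold change of Lrp6 was 0.44, with an adjusted p of 0.0481 in limma. That fit gave an adjusted p below 0.05 to 962 genes (5.02%) and 4 members (7.55%), where the fit of all 6 libraries gave 0. The same library was the highest of the UIRI group in 6 of the 11 receptors and in 2 of the 7 genes of the R-spondin axis. The share over all genes was not counted.

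The other Frizzled genes showed no unadjusted p below 0.05 in limma, whereas edgeR gave Fzd6 0.0489 and DESeq2 gave Fzd10 0.047. Fzd3, Fzd4, Fzd5, Fzd6, Fzd7 and Fzd8 had means from 326 to 2117 normalized counts in UIRI and log2 fold changes from -0.22 (Fzd6) to 0.22 (Fzd4). Fzd10 was close to the limit of detection. It had normalized counts of 19.3, 2.25 and 6.57 in UIRI against 2.51, 1.08 and 3.13 in UIRI + BA, which overlap. The reads of Fzd10 summed to 31 in UIRI against 6 in UIRI + BA, a depth-scaled ratio of 3.86 (95% exact binomial interval 1.58 to 11.3), and 17 of the 31 came from UIRI replicate 1. Without that library the ratio was 2.31 with an interval of 0.833 to 7.33, so that the difference of Fzd10 depended on UIRI replicate 1. Both intervals cover counting error only, not the spread between replicates.

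Ror1, Ror2 and Ryk are receptors that carry Wnt5-type signals without beta-catenin. All 3 had overlapping groups, with log2 fold changes of -0.09 ± 0.09 (SE), -0.27 ± 0.17 (SE) and -0.01 ± 0.07 (SE) and adjusted p of 0.726, 0.585 and 0.973 in limma. Ryk was the most abundant of them per kb, at 369.8 normalized counts per kb in UIRI against 368 in UIRI + BA. The R-spondin axis of 7 genes had no unadjusted p below 0.05. The log2 fold changes were -0.19 for Rspo1, 0.13 for Rspo3, 0.14 for Lgr4, -0.50 for Lgr5, 0.26 for Znrf3 and -0.20 for Rnf43, all with overlapping groups, and Rspo2 and Rspo4 were not rows of the table. Lgr6, a receptor of R-spondins, was the exception in overlap, at 26.1, 18.0 and 23.0 in UIRI against 17.5, 10.8 and 15.7 in UIRI + BA. The closest libraries of the groups lay 0.458 normalized counts apart, and the log2 fold change of Lgr6 was -0.59 ± 0.29 (SE; adjusted p = 0.525 in limma). Lgr4, at 436 normalized counts per kb in UIRI, held with Znrf3 and Rspo3 92.8% ± 2.09 (SD, n = 3) of the sum of this axis per kb.

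The genes grouped here as antagonists are mostly secreted inhibitors of the pathway. Of the 10 genes of this role, 7 were lower and 3 higher with BA (median log2 fold change -0.17). An unadjusted p below 0.05 in limma was found in 3 (30%), all lower, against 4.61% of all genes. In 4 (40%) all UIRI + BA libraries lay below all UIRI libraries, against 6.96% of all genes. Sfrp1, Dkk3 and Dkk2 dominated the antagonists, with 91.8% ± 1.15 (SD, n = 3) of their sum per kb in UIRI. Dkk2, a DKK protein that binds LRP5 and LRP6, lies on the plus strand of chromosome 3 from 132085292 to 132180304 (GRCm38) and was at 2526, 1865 and 1735 normalized counts in UIRI against 1468, 1229 and 1659 in UIRI + BA. All UIRI + BA libraries were below all UIRI libraries, by 75.8 normalized counts at the closest. Dkk2 had a log2 fold change of -0.48 ± 0.15 (SE) with an adjusted p of 0.374 in limma, and its range without 1 library was -0.59 to -0.32. Sfrp4 was at 122, 155 and 168 in UIRI against 99.0, 113 and 109.6 in UIRI + BA, with a log2 fold change of -0.46 ± 0.16 (SE; adjusted p = 0.406 in limma). Sfrp2 was at 81.6, 82.1 and 71.2 in UIRI against 53.9, 56.0 and 69.9 in UIRI + BA, with a log2 fold change of -0.39 ± 0.17 (SE; adjusted p = 0.494 in limma). The groups were apart in both SFRP genes, by 9.28 normalized counts in Sfrp4 and 1.28 in Sfrp2.

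Draxin, a secreted axon guidance protein that also inhibits Wnt signaling, had normalized counts of 22.7, 22.5 and 19.7 in UIRI against 7.52, 4.31 and 12.5 in UIRI + BA. The UIRI libraries lay close together and the highest UIRI + BA library was well below them. Its 76 reads in UIRI against 22 in UIRI + BA give a depth-scaled ratio of 2.58 (95% exact binomial interval 1.59 to 4.35, counting error only). Draxin had the most negative log2 fold change of all members, -1.41 ± 0.38 (SE), with an adjusted p of 0.304 in limma, and its range without 1 library was -1.75 to -1.07. The other antagonists differed less. Sfrp1, Sfrp5, Dkk3, Wif1, Notum (an enzyme that removes the lipid from Wnt proteins) and Kremen1 (a receptor for DKK proteins) had log2 fold changes from -0.23 (Sfrp1) to 0.20 (Sfrp5), and all had overlapping groups. Dkk3 had nearly equal means in the groups, 2942 ± 64.7 (SD, n = 3) in UIRI against 2914 ± 86.4 (SD, n = 3) in UIRI + BA. Dkk1 and Dkk4 were not rows of the table and were not analysed here.

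The effectors and targets act inside the cell, where Ctnnb1, Lef1 and Tcf7 carry the signal and Axin2, Nkd1 and Nkd2 dampen it. Of these 6 genes, 5 were lower with BA and 1 higher (median log2 fold change -0.36). An unadjusted p below 0.05 in limma was found in 3 (50%), all lower, against 4.61% of all genes. In 4 (66.7%) all UIRI + BA libraries lay below all UIRI libraries, against 6.96% of all genes. Beta-catenin itself, Ctnnb1 (chromosome 9, plus strand, 120929216 to 120960507), had normalized counts of 7461, 7051 and 8466 in UIRI against 8238, 7544 and 8022 in UIRI + BA. The groups overlapped, and the log2 fold change of Ctnnb1 was 0.05 ± 0.09 (SE; adjusted p = 0.836 in limma). Of the factors that act with beta-catenin on DNA, Lef1 was at 54.4, 42.7 and 47.1 in UIRI against 26.3, 42.0 and 52.2 in UIRI + BA, with a log2 fold change of -0.30 ± 0.27 (SE) and overlapping groups. Tcf7 was at 527, 534 and 495 in UIRI against 487, 487 and 449 in UIRI + BA, which did not overlap. The difference of Tcf7 was small, with a log2 fold change of -0.13 ± 0.09 (SE; adjusted p = 0.615 in limma).

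The 3 genes of this group with an unadjusted p below 0.05 were the feedback inhibitors. Nkd2, a naked cuticle protein that binds Dishevelled and restrains the signal, is located between 73818534 and 73847631 of chromosome 13, minus strand (GRCm38). Nkd2 was at 1059, 994 and 978 normalized counts in UIRI against 718, 813 and 741 in UIRI + BA. The gap between the groups was wider than the range within either of them. Nkd2 had a log2 fold change of -0.42 ± 0.08 (SE), an unadjusted p of 7.09e-04, the lowest among the members, and an adjusted p of 0.225 in limma. With each library left out in turn it ran from -0.47 to -0.38. Nkd1, the other naked cuticle gene (chromosome 8, plus strand, 88521354 to 88594884), was at 901, 740.1 and 759 in UIRI against 517, 502 and 645 in UIRI + BA. All UIRI + BA libraries were below all UIRI libraries. Nkd1 had a log2 fold change of -0.53 ± 0.12 (SE) with an adjusted p of 0.253 in limma, and a range of -0.64 to -0.44 without 1 library. On the whole reads, DESeq2 gave log2 fold changes of -0.53 for Nkd1 and -0.41 for Nkd2, with adjusted p of 0.0235 and 0.0179.

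Axin2, a scaffold of the complex that degrades beta-catenin and a widely used readout of the canonical branch (chromosome 11, plus strand, 108920349 to 108950783), was at 484, 434 and 360.3 in UIRI against 313, 289.7 and 351 in UIRI + BA. The groups did not overlap, but UIRI replicate 3 and UIRI + BA replicate 3 were 9.74 normalized counts apart. Axin2 had a log2 fold change of -0.42 ± 0.13 (SE) and an adjusted p of 0.368 in limma. Without UIRI replicate 1 it was -0.32 with an unadjusted p of 0.0517, and without UIRI replicate 3 it was -0.53 with an adjusted p of 0.0368 in limma.

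**Figure D4:**
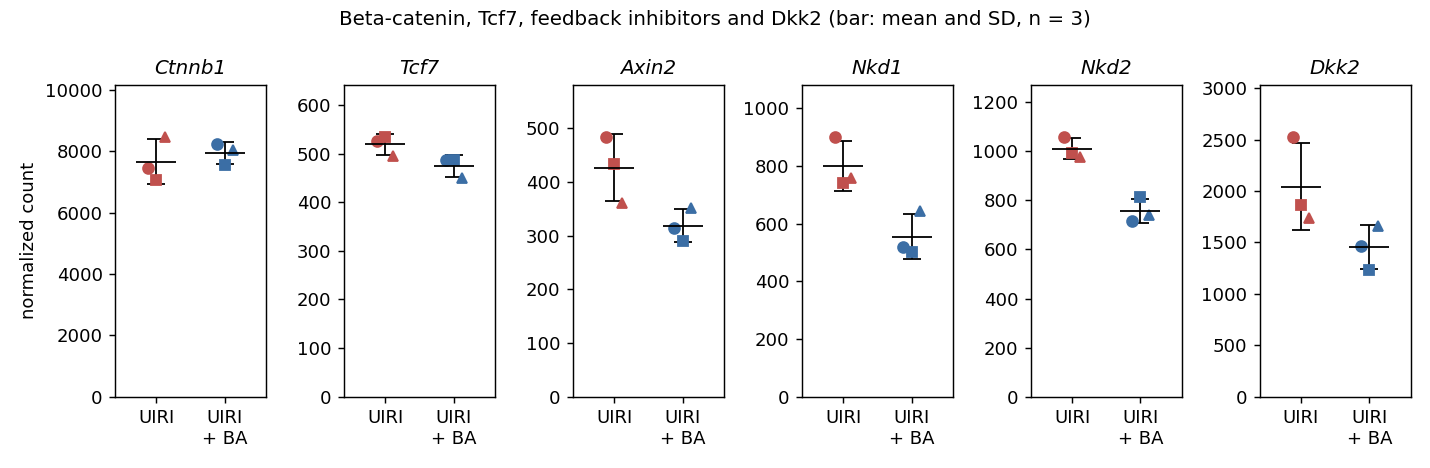
Normalized counts (linear axes from 0) of Ctnnb1, Tcf7, Axin2, Nkd1, Nkd2 and the antagonist Dkk2; each point is 1 library (circle, square and triangle for replicates 1, 2 and 3), and the black marks are the mean and SD of 3 libraries. The UIRI (red) and UIRI + BA (blue) points overlap in Ctnnb1 and are apart in the other 5 genes, by little in Tcf7, Axin2 and Dkk2; in Axin2 and Dkk2 both replicate 3 libraries lie close together.

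The promoters of the feedback inhibitors are given here because their mRNA levels were lower with BA while that of Ctnnb1 was not. A promoter of Wnt11 is given because it holds a TCF/LEF match. Each line is the 250 bases before a transcription start in RefSeq, in build GRCm38.p6, read 5′ to 3′ on the strand of the gene. Capitals mark a match to a TCF/LEF consensus, searched on both strands as CTTTG followed by 2 bases that are each A or T.
Axin2, chr11:108920099-108920348, plus strand: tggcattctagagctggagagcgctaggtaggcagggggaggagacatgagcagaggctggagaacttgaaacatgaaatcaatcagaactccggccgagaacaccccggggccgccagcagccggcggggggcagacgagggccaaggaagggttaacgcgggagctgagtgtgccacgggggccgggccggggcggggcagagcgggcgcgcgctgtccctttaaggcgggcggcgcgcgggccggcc
Nkd1, chr8:88527383-88527632, plus strand: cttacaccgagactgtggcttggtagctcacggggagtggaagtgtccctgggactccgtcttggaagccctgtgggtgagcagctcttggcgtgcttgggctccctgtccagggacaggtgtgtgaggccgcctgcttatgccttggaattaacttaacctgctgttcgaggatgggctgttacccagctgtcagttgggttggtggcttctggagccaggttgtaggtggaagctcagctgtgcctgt
Nkd2, chr13:73847632-73847881, minus strand: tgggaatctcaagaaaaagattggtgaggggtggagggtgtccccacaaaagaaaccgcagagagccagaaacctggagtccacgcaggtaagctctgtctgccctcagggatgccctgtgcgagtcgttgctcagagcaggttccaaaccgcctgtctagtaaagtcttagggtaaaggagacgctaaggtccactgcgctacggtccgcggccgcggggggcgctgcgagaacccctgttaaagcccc
Wnt11, chr7:98834862-98835111, plus strand: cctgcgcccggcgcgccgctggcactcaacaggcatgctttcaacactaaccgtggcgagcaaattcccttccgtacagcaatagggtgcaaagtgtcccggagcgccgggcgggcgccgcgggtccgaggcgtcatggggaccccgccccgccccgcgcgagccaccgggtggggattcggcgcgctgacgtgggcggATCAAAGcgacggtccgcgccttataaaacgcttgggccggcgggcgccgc
The start used for Nkd1 lies within the gene as GENCODE draws it, downstream of its first start. The windows of Axin2, Nkd1 and Nkd2 held no match. The window shown for Wnt11 held 1, on the opposite strand, which begins 51 bases before the start. That of another Wnt11 start, chr7:98838595-98838844, held 0 and is not shown. Of the 53 members, 35 had a promoter in the RefSeq table, with 44 starts in all, and 4 of these 44 windows held a match (Fzd7, Lef1, Wnt5b and Wnt11), against 14.8% of the 32851 promoters of the whole table. A match of letters is a description of the sequence, and the absence of these letters from a window says nothing about sites elsewhere.

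The genes lower with BA differed in how far they depended on a particular library. Of the 14 members with an unadjusted p below 0.05, 7 kept it in all 6 fits that leave out 1 library: Wnt5b, Wnt7a, Fzd2, Draxin, Dkk2, Nkd1 and Nkd2. The other 7 lost it in at least 1 fit, Axin2 and Wnt6 in 1 each, and Wnt4, Wnt7b, Wnt11, Fzd1 and Sfrp4 in several. Both replicate 3 libraries held the most urothelium, the most proximal tubule and the least macrophage signal of their groups. UIRI + BA replicate 3 also held the most fibroblast and myofibroblast signal of its group. A fit without both replicate 3 libraries, and so with 1 library fewer in each group, was added after seeing the data. In it 4 members (7.55%) had an adjusted p below 0.05 in limma, all lower with BA, against 2.9% (557) of all genes. At an unadjusted p below 0.05 it had 12 members (22.6%) lower and 6 (11.3%) higher, against 10.8% and 12.4% of all genes. The 4 members with an adjusted p below 0.05 in limma were Wnt4 (log2 fold change -1.02, adjusted p = 0.0244), Dkk2 (-0.69, adjusted p = 0.0395), Axin2 (-0.60, adjusted p = 0.0334) and Nkd1 (-0.68, adjusted p = 0.0216). In all 4 that fit leaves out the highest UIRI + BA library, so their larger differences are not independent of the choice. Nkd2 was at -0.43 in that fit, with an adjusted p of 0.0548 in limma. Wnt7a was at -0.84 and Wnt7b at -0.25 in that fit, with adjusted p of 0.164 and 0.331 in limma. Without UIRI replicate 3 alone, 12 members (22.6%) were lower and 6 (11.3%) higher at an unadjusted p below 0.05, against 11.5% and 13.7% of all genes, so that the share of higher members was near that of the table. The higher ones were Wnt2b (0.82), Fzd4 (0.49), Fzd5 (0.36), Lrp6 (0.44), Lgr4 (0.29) and Znrf3 (0.49). The part of fibroblasts, tubule cells and urothelium in these differences was not tested.

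**Figure D5:**
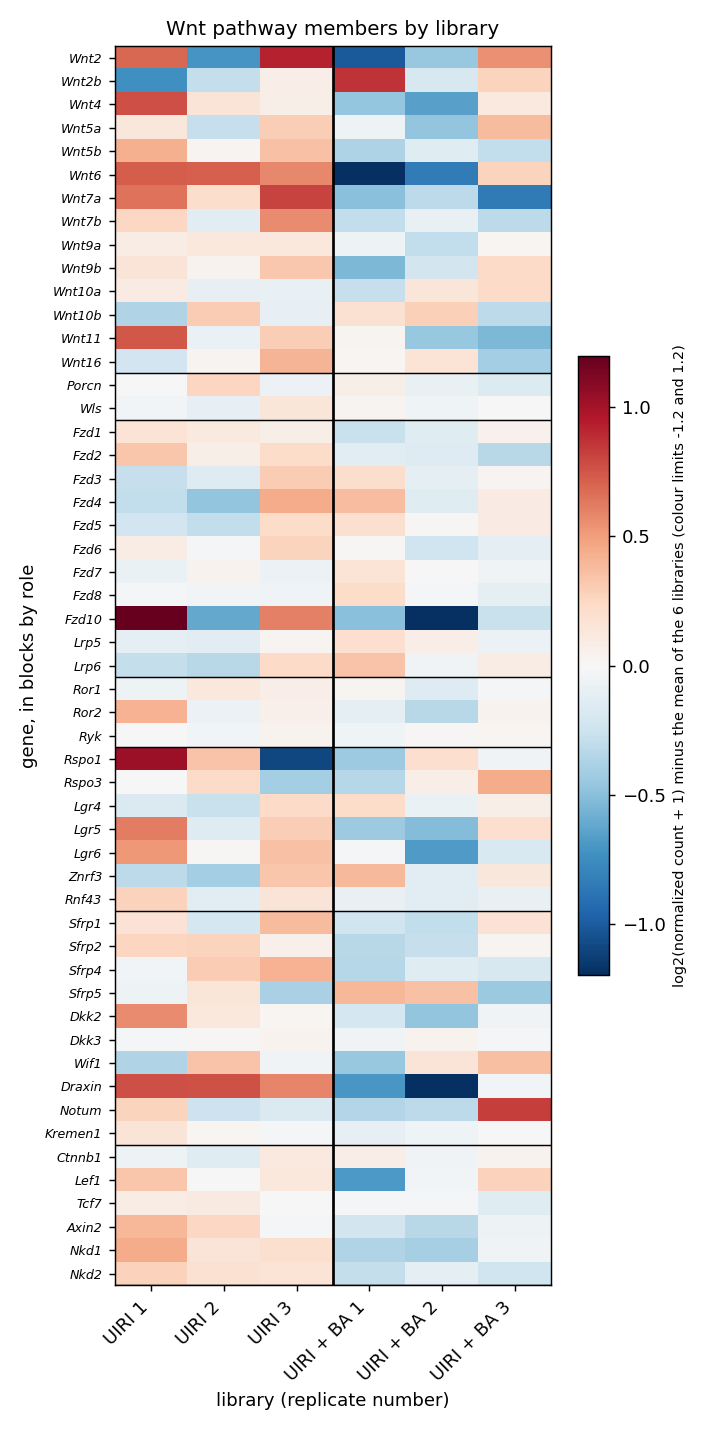
Log2(normalized count + 1) of each member in each library minus its mean over the 6 libraries (red higher, blue lower; colours end at -1.2 and 1.2), with horizontal lines between roles and a vertical line between the groups. Wnt7a, Wnt5b, Draxin, Nkd1, Nkd2 and Fzd2 lie above their mean in all UIRI libraries and below it in all UIRI + BA libraries, by little in Wnt5b UIRI replicate 2 and Draxin UIRI + BA replicate 3, while Lrp6, Fzd4, Lgr4 and Znrf3 show UIRI replicate 3 on the side of UIRI + BA.

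Other genes of the pathway were counted from lists of 4 kinds, to be read against the 4.61% of all genes that were lower and the 5.67% that were higher at an unadjusted p below 0.05. Among 32 cytoplasmic and nuclear components of the canonical branch, such as Dishevelled, GSK3, APC and TCF7L proteins, 0 were higher and 1 (3.12%) lower at that threshold in limma, and the median log2 fold change was 0.02. The lower gene was Pygo1, a nuclear cofactor of beta-catenin, at 228, 189 and 199.9 in UIRI against 160.3, 160.5 and 138 in UIRI + BA (log2 fold change -0.42, adjusted p = 0.358 in limma). Of 25 genes of planar polarity and calcium signaling, 3 (12%) were lower and 0 higher, namely Ptk7 (log2 fold change -0.37), Nfatc4 (-0.45) and Camk2g (-0.20). The groups did not overlap in any of these 3. Of 18 extracellular modulators, 3 (16.7%) were lower and 3 higher at that threshold. Reck (-0.39), which presents Wnt7 ligands on the cell surface, and Apcdd1 (-1.02) were among the lower genes. Trabd2b (0.49), a protease that inactivates Wnt proteins, and the glypicans Gpc3 (0.41) and Gpc4 (0.29) were higher. Reck was at 509.8, 519 and 493 in UIRI against 362, 378 and 423 in UIRI + BA, and Trabd2b at 1588, 1892 and 1944 in UIRI against 2666, 2263 and 2686 in UIRI + BA, without overlap in either.

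Of 15 further genes known as Wnt targets, 4 (26.7%) were lower and 2 higher with BA at an unadjusted p below 0.05. Mmp7, a matrix protease of injured tubules, was at 458, 307 and 448 in UIRI against 173, 158 and 279 in UIRI + BA (log2 fold change -1.01, adjusted p = 0.249 in limma). All UIRI + BA libraries were below all UIRI libraries. Snai2 (log2 fold change -0.29) and Fn1 (-0.32) were also among the lower genes, and Myc (0.42) and Id2 (0.21) the higher ones. Myc was at 658, 678 and 775 in UIRI against 1050 in UIRI + BA replicate 1, 844 in replicate 2 and 929.7 in replicate 3. The log2 fold changes of these targets thus pointed both ways.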

How the data were processed

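The 6 libraries were grouped by their labels and none was left out. Strand-specific libraries were made from oligo(dT)-selected RNA, and the labels and the methods name different extraction reagents. The methods name HISAT2 for the authors' alignment, FeatureCounts for counting and DESeq2 for testing; the genome build, the annotation and the strand setting are not given in the sources used here. The authors deposited 1 expression table whose signal is the read count of a gene over the size factor of the library. Of these values, 100% were whole reads within a tolerance of 0.01. Columns of library values left unused numbered 0. The log2 fold change and p-value columns of the same table and the deposited enrichment tables (the count of called genes, its ratio and the p-value of each Gene Ontology or KEGG term) hold the authors' own comparisons and were not used.

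The main test was limma 3.58.1 (R 4.3.3) on log2(normalized count + 1), that is with a pseudocount of 1, a variance trend over intensity, no covariate, no filter and all 19176 rows. As alternatives, the recovered reads were tested with DESeq2 1.42.0 (Wald test) and with edgeR 4.0.16 (quasi-likelihood test). Other alternatives were a pseudocount of 0.1, a mean of at least 10, quantile normalization, upper quartile scaling, a replicate block and each library left out in turn. Intervals for read ratios are exact (Clopper-Pearson, scipy 1.17.1) and cover counting error only. The study calls the replicates biological, and 3 per group limit the precision. Counts were simulated for these groups with an assumed dispersion of 0.03 for every gene. On them limma recovered 78% of 100 genes changed by 1 on the log2 scale and 100% of 100 changed by 2, with 6 false calls among 19176 genes. DESeq2 recovered 79% and 100%, with 18 false calls among 19176 genes. For edgeR the shares were 80% and 100%, with 7 false calls among 17082 genes. Smaller changes, such as those of Nkd1 (-0.53) and Nkd2 (-0.42), were not simulated. The changed genes were drawn only from rows with higher mean counts than Wnt6, Wnt7a, Draxin or Fzd10, so these shares do not apply to members with so few reads.

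Values in every library are given for all ligands, Porcn, Wls, Lrp5, Lrp6, Ctnnb1, Axin2, Lef1, Tcf7 and any other member with an unadjusted p below 0.05 or groups that do not overlap. Fzd10 and Dkk3 were described in addition, after their values were seen. Of the other pathway lists, genes with an unadjusted p below 0.05 are named, at most the 5 with the smallest p in a list. Members and lists were chosen with earlier results of these data known, including the lower ligands, Wnt7a, Draxin and Fzd10, so none of these counts is independent support. Gene lengths are merged exons of GENCODE release M21. Promoters come from RefSeq in build GRCm38.p6.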

Additional observations from a re-analysis of the deposited data

How the results depend on the processing

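With another pseudocount, filter, normalization or tool, none of the 31 members given by library changed sign (30 with the filter, which removed Wnt6). Fzd10, described in addition, is not counted among them, and the filter and edgeR left it out. The number of members with an adjusted p below 0.05, 0 in limma on all 6 libraries, was 2 with DESeq2, 0 to 4 without 1 library (4 without UIRI replicate 3), and 4 without both replicate 3 libraries, a fit chosen after seeing the data. The number higher with BA at an unadjusted p below 0.05 ran from 0 to 6 without 1 library, and was 6 without both replicate 3 libraries; these 6 are 11.3% of the members, against 13.7% (without UIRI replicate 3) and 12.4% of all genes. Deviations of same-numbered libraries from their group means correlated at -0.24, 0.30 and 0.15 over 17249 genes. UIRI replicate 2 correlated best with its own number, and UIRI replicates 1 and 3 did not. Deviations of only 3 libraries per group sum to 0, so these correlations cannot decide whether equal numbers share a batch or a pairing. With the replicate block, 17 members were lower at an unadjusted p below 0.05 in place of 14, and among the Frizzled and LRP receptors 4 in place of 2. Without 1 library, the number of lower members at that threshold ran from 3 (without UIRI + BA replicate 1) to 7 for the ligands, 1 to 3 for the Frizzled and LRP receptors and 2 to 5 for the antagonists. The median log2 fold change then ran from -0.53 to -0.25 for the ligands, from -0.33 to -0.12 for the antagonists and from -0.21 to 0.086 for the R-spondin axis, where it turned positive without UIRI replicate 1. Without both replicate 3 libraries the median of the effectors and targets was -0.47. Members near 0 changed sign without 1 library: Ctnnb1 ran from -0.0033 to 0.13, Wls from -0.065 to 0.056, Wnt5a from -0.31 to 0.11, Wnt10a from -0.034 to 0.22, Wnt10b from -0.055 to 0.28 and Wnt16 from -0.29 to 0.025. Without both replicate 3 libraries, Wls was 0.056, Wnt10a -0.064 and Wnt16 0.19. The cause was not tested. Few reads limit Wnt6, Wnt7a, Draxin, Fzd10, Rspo1, Lgr5, Lgr6 and Wif1, among others, and 3 libraries per group limit every member.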
